A study of Mus musculus with 8 samples.

Results

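The 10 genes described here encode proteins that carry fatty acids in the cell, build and coat lipid droplets, or release and take up their lipid: Fabp1, Fabp4 and Fabp5, Plin2, Plin4 and Cidec, Pnpla2, Lpl, and Dgat1 and Dgat2. They were chosen by symbol, and all 10 were found, 1 row each, among the 37310 genes of the deposited count table. All 10 had enough counts to be tested. They were measured by bulk RNA sequencing of mouse alveolar macrophages, the phagocytes of the airspaces, in 8 libraries, 2 for each of 4 groups. Transplanted expanded cells (texAM) were C57BL/6 alveolar macrophages that had been expanded in culture and had then spent 4 months in the lungs of recipient mice. Expanded cells (exAM) were C57BL/6 alveolar macrophages grown ex vivo for 2 months. Transplanted alveolar macrophages (tAM) were C57BL/6 cells after 4 months in a recipient lung, with no culture named in their labels. Host alveolar macrophages (HostAM) were resident cells of the C57Bl/6-Ly5.1 strain, which carries another allele of the surface protein CD45.

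The lung groups were sorted from whole lung as SiglecF+ CD11c+ cells, by CD45.2 for texAM and tAM and by CD45.1 for HostAM, and exAM were not sorted. Donors were wild-type C57BL/6 and recipients wild-type C57Bl/6-Ly5.1 mice, both 8 weeks old, and cells were given into the trachea. How long the texAM cells were cultured before transfer, and whether the HostAM mice had been given cells or PBS, is not given in the sources used here. The strain thus differs between HostAM and the other groups, and culture and the absence of a sort cannot be told apart in any comparison with exAM. Each library was a pool from 3 mice per the labels, so p-values measure the spread between pools. Totals ran from 6546272 counts in exAM replicate 1 to 9154128 counts in texAM replicate 1.

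A lipid droplet is a store of triglyceride and cholesteryl ester under a single layer of phospholipid with a coat of proteins. Fatty acids reach the cell free or cut from lipoproteins by lipoprotein lipase, are carried through the cytosol by fatty acid binding proteins, are joined to glycerol by acyltransferases that end with DGAT1 and DGAT2, and are freed again by lipases that begin with the product of Pnpla2. Alveolar macrophages take up and break down pulmonary surfactant, which is mostly lipid, and the nuclear receptor PPARγ, known to drive several of these genes in fat cells, is required for their development.

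Promoter sequences are shown for 3 of the 4 genes that differ most between exAM and the lung groups (Fabp1, Cidec and Plin4, but not Dgat2). The promoter of Plin2 is shown for contrast, as its scaled level differed by the test in no comparison, though its unscaled counts did. Each runs 5′ to 3′ on the gene's strand from 250 bases before to 50 bases after the annotated start, from RefSeq on GRCm38.p6. Capitals mark the nuclear receptor half-site AGGTCA or its reverse complement TGACCT and the TATA box TATAAA on either strand. The table of promoters held 5 of the 10 genes (Fabp1, Plin2, Plin4, Pnpla2 and Cidec, the last with 2 starts). The Fabp1 promoter lies at chr6:71199629-71199928 on the plus strand, the Cidec promoter of the upstream start at chr6:113435711-113436010 on the minus strand, the Plin4 promoter at chr17:56109733-56110032 on the minus strand, and the Plin2 promoter at chr4:86670010-86670309 on the minus strand.
Fabp1: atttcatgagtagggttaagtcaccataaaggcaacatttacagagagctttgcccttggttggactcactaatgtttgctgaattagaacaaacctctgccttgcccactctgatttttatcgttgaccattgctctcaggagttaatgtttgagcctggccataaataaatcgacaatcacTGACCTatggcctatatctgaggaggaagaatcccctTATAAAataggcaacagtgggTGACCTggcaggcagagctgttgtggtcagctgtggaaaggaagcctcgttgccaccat
Cidec: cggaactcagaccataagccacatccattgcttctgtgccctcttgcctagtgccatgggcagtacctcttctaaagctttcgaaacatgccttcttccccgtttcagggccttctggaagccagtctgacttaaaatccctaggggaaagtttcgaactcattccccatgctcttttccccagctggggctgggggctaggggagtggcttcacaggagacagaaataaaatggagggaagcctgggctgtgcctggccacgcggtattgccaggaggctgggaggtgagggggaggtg
Plin4: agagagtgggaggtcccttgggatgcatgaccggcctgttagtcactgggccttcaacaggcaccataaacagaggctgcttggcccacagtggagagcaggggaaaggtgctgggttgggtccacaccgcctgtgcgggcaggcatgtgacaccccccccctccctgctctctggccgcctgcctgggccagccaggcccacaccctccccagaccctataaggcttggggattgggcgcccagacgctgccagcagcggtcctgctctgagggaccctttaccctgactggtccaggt
Plin2: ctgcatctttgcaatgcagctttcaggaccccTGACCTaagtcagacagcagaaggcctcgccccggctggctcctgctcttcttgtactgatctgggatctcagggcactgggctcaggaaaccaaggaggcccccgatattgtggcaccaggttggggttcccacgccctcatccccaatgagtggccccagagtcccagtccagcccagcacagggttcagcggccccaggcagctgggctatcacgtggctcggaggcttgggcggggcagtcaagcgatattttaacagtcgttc
The Fabp1 window held the half-site at -67 and at -9 from the start, with a TATA box at -30 between them. The Plin2 window held 1 half-site, at -218, and 1 palindrome CACGTG, read on both strands as the hypoxia response core ACGTG at -4 and -3. The Cidec, Plin4 and Pnpla2 windows held none of the motifs searched. Searched on both strands, the half-site stood in 16.3%, the TATA box in 13.6% and ACGTG in 19.6% of 32851 mouse promoters of the same length. The other motifs, found in none of the windows, were the C/EBP motif TTGCNNCAA (2.08% of promoters), the ETS motif GAGGAAGT (3.2%) and the PPAR-RXR direct repeat of the half-site spaced by 1 base (0.0396%). Only exact matches were searched, so near matches were missed. An example is TGACCTatggcct at the -67 half-site of Fabp1, close to that direct repeat read on the other strand. Matches describe the letters only.

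Fabp1, Plin4, Cidec and Dgat2 were counted rarely or not at all in cultured cells, while in expanded cells after 4 months in a lung none of them differed by the test from either of the other lung groups. For Fabp1 that test could show little, because all 6 lung libraries held 801 to 831 counts although their totals differed. In texAM the 4 genes stood 15.3-fold, at least 9.84-fold, 46.1-fold and 84.0-fold higher than in exAM. The other 6 genes, Fabp4, Fabp5, Plin2, Pnpla2, Lpl and Dgat1, had 308 to 7262 counts in every library and differed by 2.04-fold at most between groups. In all, 9 of the 10 genes were called in texAM over exAM, 4 higher and 5 lower, where 43.7% of all tested genes were called (23.2% higher and 20.5% lower). A call is an adjusted p under 0.05 in edgeR's quasi-likelihood test with Benjamini-Hochberg adjustment over 14537 tested genes, and all adjusted p-values below are from that test. In exAM over tAM 8 of 10 were called, 4 higher and 4 lower, where 44.7% of all tested genes were called (21.5% higher and 23.2% lower). In exAM over HostAM the count was again 8 of 10, 4 higher and 4 lower, where 44.1% of all tested genes were called (20.9% higher and 23.3% lower). These 3 comparisons share the exAM libraries, so their calls are not separate evidence.

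**Figure D1:**
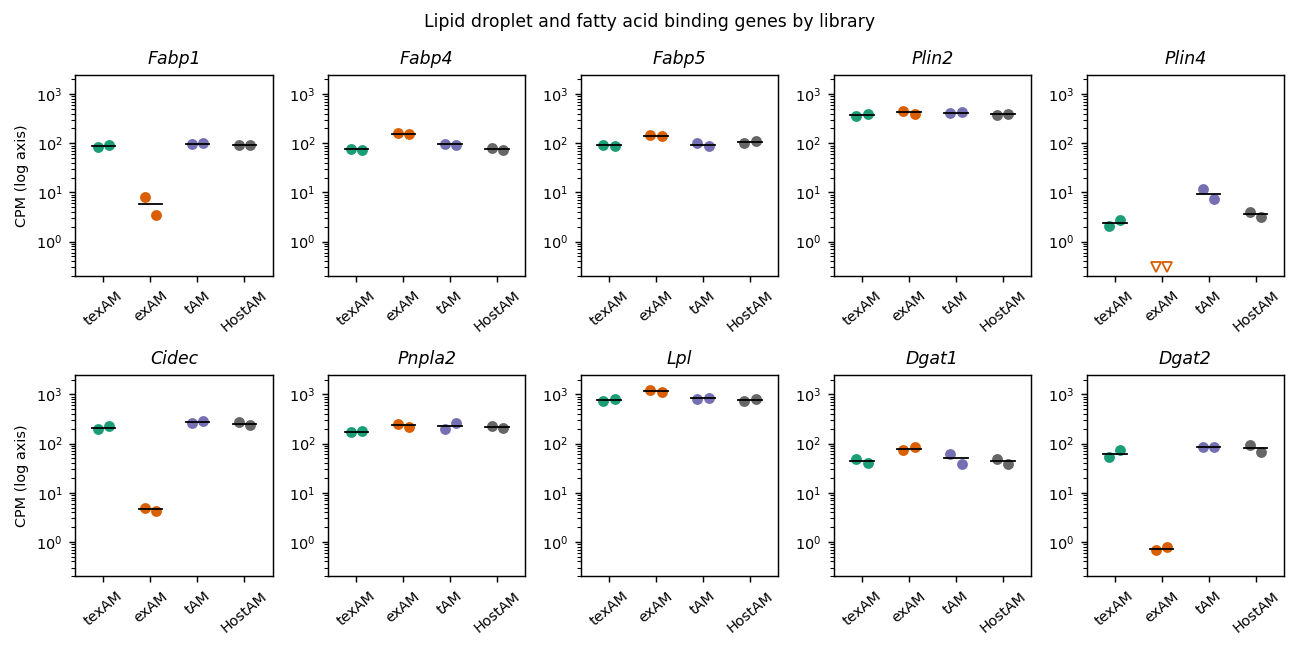
Level of each of the 10 genes in each library, in CPM on a log axis, by group; points are libraries, bars are group means and open triangles at the bottom are libraries with 0 counts. Fabp1, Plin4, Cidec and Dgat2 have both exAM libraries far below the 6 lung libraries, while the other 6 genes stay within a narrow band.

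Fabp1 encodes the liver fatty acid binding protein, known mainly from hepatocytes and enterocytes (ENSMUSG00000054422, chromosome 6, 71199827 to 71205023, plus strand, 4 exons; all positions are GRCm38). Its level was 83.6 and 94.2 CPM (counts scaled to the TMM-adjusted library size) in texAM, 8.23 and 3.55 CPM in exAM, 95.6 and 101 CPM in tAM, and 91.6 and 94.3 CPM in HostAM. Both exAM libraries stood far below all lung libraries, and the exAM libraries also differed from each other. The log2 fold change was 3.93 ± 0.28 (SE, adjusted p = 3.54e-06) in texAM over exAM, -4.08 ± 0.28 (adjusted p = 2.57e-06) in exAM over tAM and -4.00 (adjusted p = 3.02e-06) in exAM over HostAM. Because of the spread within exAM, the first of these was 4.61 without exAM replicate 1 and 3.40 without exAM replicate 2.

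Fabp4 encodes the fatty acid binding protein of adipocytes and macrophages (ENSMUSG00000062515, chromosome 3, 10204088 to 10208576, minus strand, 4 exons). Its level was 78.2 and 74.6 CPM in texAM, 159 and 153 CPM in exAM, 95.4 and 93.8 CPM in tAM, and 79.1 and 73.8 CPM in HostAM. The exAM libraries were the highest and overlapped no lung library, and both tAM libraries were above the texAM and HostAM libraries. Fabp4 was lower in texAM than in exAM by a log2 fold change of -1.03 ± 0.12 (SE, adjusted p = 9.27e-05) and kept that direction in the unscaled counts, at -0.45 (adjusted p = 0.0287). In exAM over tAM it was 0.72 (adjusted p = 0.000831), and the unscaled 0.29 did not pass (adjusted p = 0.134).

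Fabp5, the epidermal fatty acid binding protein that macrophages also make (ENSMUSG00000027533, chromosome 3, 10012548 to 10016607, plus strand, 4 exons), lies on the same chromosome as Fabp4. It measured 93.2 and 88.2 CPM in texAM, 146 and 138 CPM in exAM, 101 and 87.9 CPM in tAM, and 101 and 111 CPM in HostAM. The exAM libraries were again highest, and the ranges of texAM and tAM overlapped. The log2 fold change was -0.64 ± 0.13 (SE, adjusted p = 0.00252) in texAM over exAM, 0.59 in exAM over tAM (adjusted p = 0.00421) and 0.42 in exAM over HostAM (adjusted p = 0.0225). In unscaled counts these were -0.06, 0.15 and -0.11 with adjusted p-values of 0.753, 0.456 and 0.577, so that the last turned sign. The call against HostAM was also lost without exAM replicate 1 (adjusted p = 0.0916) and without HostAM replicate 1 (adjusted p = 0.104). Fabp5 shares 90% or more of a stretch of at least 100 bases with 5 processed pseudogenes, and the 2 of them in the count table summed to 20 to 48 counts a library, against 701 to 964 for Fabp5.

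Plin2, or adipophilin, coats lipid droplets in most cells and is the usual droplet protein of macrophages (ENSMUSG00000028494, chromosome 4, 86648386 to 86670060, minus strand, 8 exons). It had 361 and 399 CPM in texAM, 462 and 392 CPM in exAM, 411 and 427 CPM in tAM, and 382 and 391 CPM in HostAM, with exAM overlapping texAM and tAM and lying just above HostAM. Plin2 was called in no comparison, with log2 fold changes of -0.17 in texAM over exAM (95% interval -0.38 to 0.05, adjusted p = 0.181) and 0.03 in exAM over tAM (-0.19 to 0.24, adjusted p = 0.849). Its raw counts were 3453 and 3496 in texAM, 2692 and 2538 in exAM, 3544 and 3408 in tAM, and 3466 and 3400 in HostAM, lowest in exAM. Unscaled, the difference was 0.41 in texAM over exAM (adjusted p = 0.0027) and -0.41 in exAM over tAM (adjusted p = 0.003), so the scaling sets both the direction and the call for this gene. Without exAM replicate 2 the scaled value was -0.31 and passed (adjusted p = 0.0382).

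Plin4 encodes perilipin 4, a droplet coat protein known from adipocytes (ENSMUSG00000002831, chromosome 17, 56100591 to 56109803, minus strand, 9 exons). It was counted 20 and 24 times in texAM, 0 and 0 times in exAM, 101 and 58 times in tAM, and 37 and 28 times in HostAM. It was thus the weakest of the 10 genes, absent from the counts of cultured cells and highest in tAM. Against 3 counts over the exAM group, it was at least 9.84-fold higher in texAM (adjusted p = 0.0014), and in exAM it was at least 39.3-fold lower than in tAM (adjusted p = 0.000184) and at least 15.0-fold lower than in HostAM (adjusted p = 0.000728). It shares 17 exonic bases with Hdgfl2 on the other strand, counted 122 to 503 times per library, and whether counting used strand is not given in the sources used here.

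Cidec, or Fsp27, sits where droplets touch and drives the transfer of lipid from the smaller to the larger droplet, giving the single large droplet of white fat (ENSMUSG00000030278, chromosome 6, 113424634 to 113435760, minus strand, 6 exons). Its counts were 1879 and 1972 in texAM, 29 and 27 in exAM, 2212 and 2300 in tAM, and 2489 and 2055 in HostAM. In CPM these were 196 and 225 in texAM, 4.97 and 4.17 in exAM, 257 and 288 in tAM, and 274 and 237 in HostAM. The exAM libraries agreed closely with each other and lay far under every lung library, and the texAM libraries were the lowest of the lung libraries. The log2 fold change was 5.53 ± 0.18 (SE, adjusted p = 6.85e-08) in texAM over exAM and -5.90 ± 0.18 (adjusted p = 4.54e-08) in exAM over tAM, 59.6-fold lower.

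Pnpla2 encodes adipose triglyceride lipase, which cuts the first fatty acid from stored triglyceride (ENSMUSG00000025509, chromosome 7, 141455198 to 141460743, plus strand, 8 exons). It measured 171 and 179 CPM in texAM, 251 and 220 CPM in exAM, 201 and 257 CPM in tAM, and 229 and 212 CPM in HostAM. The texAM libraries were the lowest, and exAM overlapped tAM and HostAM. Pnpla2 was lower in texAM than in exAM at a log2 fold change of -0.43 ± 0.13 (SE, adjusted p = 0.0196), but unscaled counts gave 0.15 (adjusted p = 0.319). The call was lost without texAM replicate 1 (adjusted p = 0.104), without texAM replicate 2 (adjusted p = 0.0653) and without exAM replicate 1 (adjusted p = 0.0996). It was not called in exAM over tAM (0.04, adjusted p = 0.817) or over HostAM (0.09, adjusted p = 0.575), whereas the unscaled -0.39 and -0.44 passed (adjusted p = 0.0238 and 0.0129).

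Lpl encodes lipoprotein lipase, a secreted enzyme that frees fatty acids from the triglyceride of lipoproteins (ENSMUSG00000015568, chromosome 8, 68880491 to 68907448, plus strand, 10 exons). It had the most counts of the 10 genes, with 7187 and 7034 in texAM, 7146 and 7262 in exAM, 7057 and 6644 in tAM, and 6620 and 7073 in HostAM. After scaling the levels were 750 and 802 CPM in texAM, 1226 and 1121 CPM in exAM, 819 and 833 CPM in tAM, and 730 and 814 CPM in HostAM. The raw counts of exAM lay within or just above those of the lung libraries, while the scaled levels of exAM lay above all of them. The log2 fold change was -0.60 ± 0.08 (SE, adjusted p = 0.000239) in texAM over exAM and 0.51 (adjusted p = 0.000638) in exAM over tAM. Unscaled it was -0.02 (adjusted p = 0.837) and 0.07 (adjusted p = 0.419). A stretch of at most 152 bases of the Lpl transcript matches transcripts of 139 other genes, and how reads with several matches were counted is not given in the sources used here.

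Dgat1 and Dgat2 encode unrelated enzymes of the same last step of triglyceride synthesis, DGAT1 in the endoplasmic reticulum and DGAT2 also at the droplet surface. Dgat1 (ENSMUSG00000022555, chromosome 15, 76502015 to 76511953, minus strand, 17 exons) measured 48.2 and 41.1 CPM in texAM, 74.6 and 83.5 CPM in exAM, 61.4 and 38.6 CPM in tAM, and 48.3 and 39.3 CPM in HostAM. The exAM libraries were highest, and the lung groups overlapped each other. Dgat1 was lower in texAM than in exAM by -0.82 ± 0.23 on the log2 scale (SE, adjusted p = 0.0144), against -0.25 unscaled (adjusted p = 0.475). That call was lost without texAM replicate 2 (adjusted p = 0.0937) and without exAM replicate 2 (adjusted p = 0.0704). The call of 0.66 in exAM over tAM (adjusted p = 0.0372) was lost without exAM replicate 1 (adjusted p = 0.0705), without exAM replicate 2 (adjusted p = 0.151) and without tAM replicate 2 (adjusted p = 0.247). The call of 0.85 in exAM over HostAM (adjusted p = 0.0122) was lost without exAM replicate 2 (adjusted p = 0.0668) and without HostAM replicate 2 (adjusted p = 0.0567).

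Dgat2 (ENSMUSG00000030747, chromosome 7, 99153658 to 99182719, minus strand, 8 exons) was counted 508 and 635 times in texAM, 4 and 5 times in exAM, 745 and 687 times in tAM, and 863 and 575 times in HostAM. In CPM it stood at 53.0 and 72.4 in texAM, 0.686 and 0.772 in exAM, 86.5 and 86.1 in tAM, and 95.1 and 66.2 in HostAM. The exAM libraries were lowest by far. The log2 fold change was 6.39 ± 0.36 (SE, adjusted p = 7.07e-07) in texAM over exAM and -6.85 ± 0.35 (adjusted p = 3.82e-07) in exAM over tAM, 116-fold lower, the largest called change of the 10 genes with counts in both groups. Of the pair of acyltransferases, cultured cells thus held 41.9 CPM per kb of Dgat1 and 0.322 CPM per kb of Dgat2, whereas texAM held 23.7 and 27.7 CPM per kb of them. CPM per kb divides the level by the length of the principal transcript, so that genes can be set side by side. Fabp4, Fabp5 and Pnpla2 also have longer annotated transcripts, of 4231, 3238 and 2625 bases against 896, 987 and 1799 bases. Their CPM per kb thus depends on the transcript chosen.

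On that scale the order of the 10 genes changed between culture and lung. In texAM the highest were Plin2 at 201, Lpl at 189, Fabp1 at 161 and Cidec at 122 CPM per kb. In exAM the highest were Lpl at 285, Plin2 at 226, Fabp4 at 174 and Fabp5 at 143 CPM per kb, with Fabp1 at 10.7 and Cidec at 2.66 CPM per kb. In tAM the highest were Plin2 at 222, Lpl at 201, Fabp1 at 178 and Cidec at 158 CPM per kb, and in HostAM Plin2 at 205, Lpl at 188, Fabp1 at 168 and Cidec at 148 CPM per kb. The 3 lung groups put the same 4 genes on top in the same order. These 4 genes had 1.09 to 1.88 counts per base in the lung libraries, in the range where counts hardly followed library size, and what that does to their order was not tested. Plin2 and Lpl stood among the top 2 in every group.

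**Figure D2:**
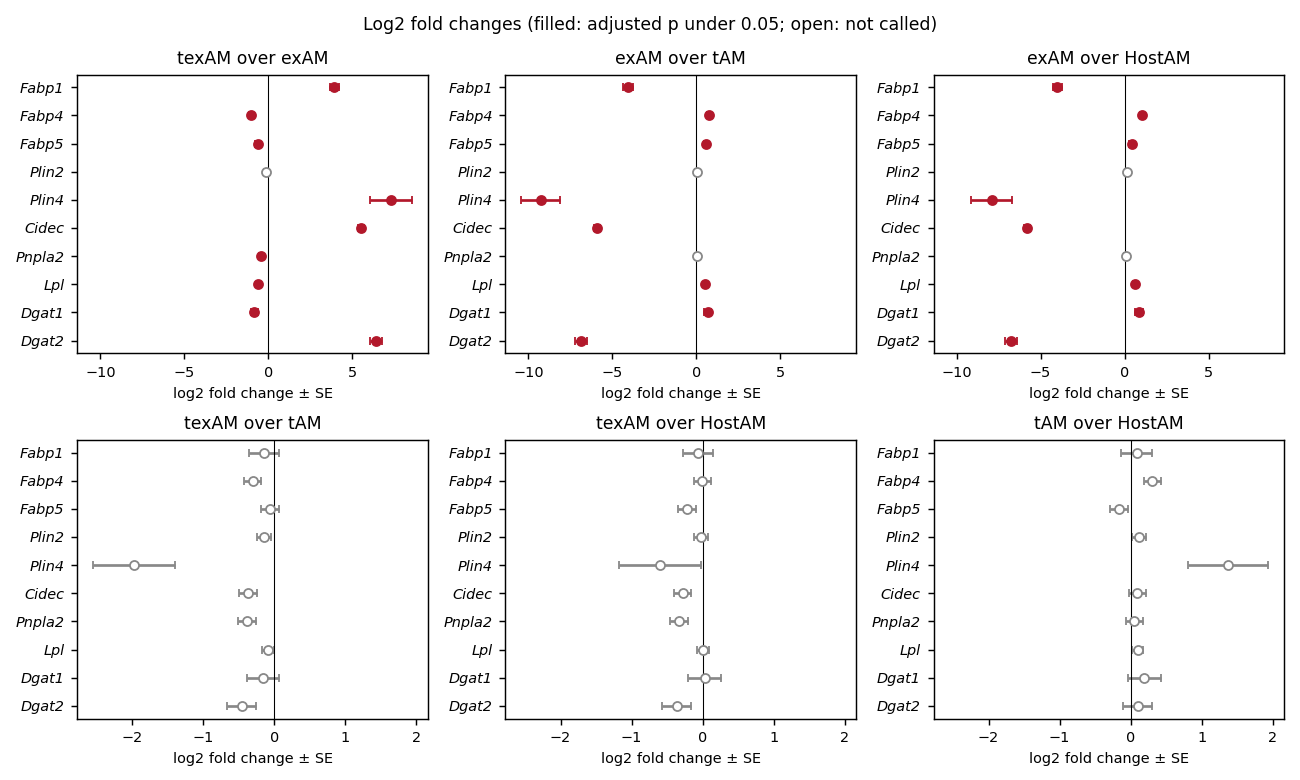
Log2 fold change with SE of each gene in the 6 comparisons, on one axis for the 3 comparisons with exAM and a narrower one for the 3 between lung groups; filled points passed an adjusted p of 0.05. In the upper panels Fabp1, Plin4, Cidec and Dgat2 stand far from 0, and in the lower panels no gene passed; the Plin4 values against exAM are fitted values against 0 counts and mark no size.

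How many reads a gene can collect bears on the genes with high counts. Among 10293 genes with at least 300 counts over the lung libraries, the median log2 ratio of the raw counts in texAM replicate 1 over tAM replicate 2 was 0.417 for genes under 0.1 counts per base of transcript and 0.037 for genes with 1.5 to 2, while the log2 ratio of the totals was 0.243. Highly covered genes thus hardly followed the size of the library. Fabp1 stood at 1.448 to 1.503, Plin2 at 1.80 to 1.88 and Lpl at 1.61 to 1.75 counts per base in the lung libraries, and Cidec reached 1.45. Pnpla2 reached 1.157 in the lung libraries, and Fabp4 stood at 1.037 and 1.103 in exAM. The 6 lung libraries held 801 to 831 counts of Fabp1, a variance of 0.166 times the mean where counting alone would give 1. Dgat2, at 0.382 counts per base at most, and Plin4, at 0.0176, were far from that range. What made the counts level off was not tested, and neither was its part in the fold changes.

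**Figure D3:**
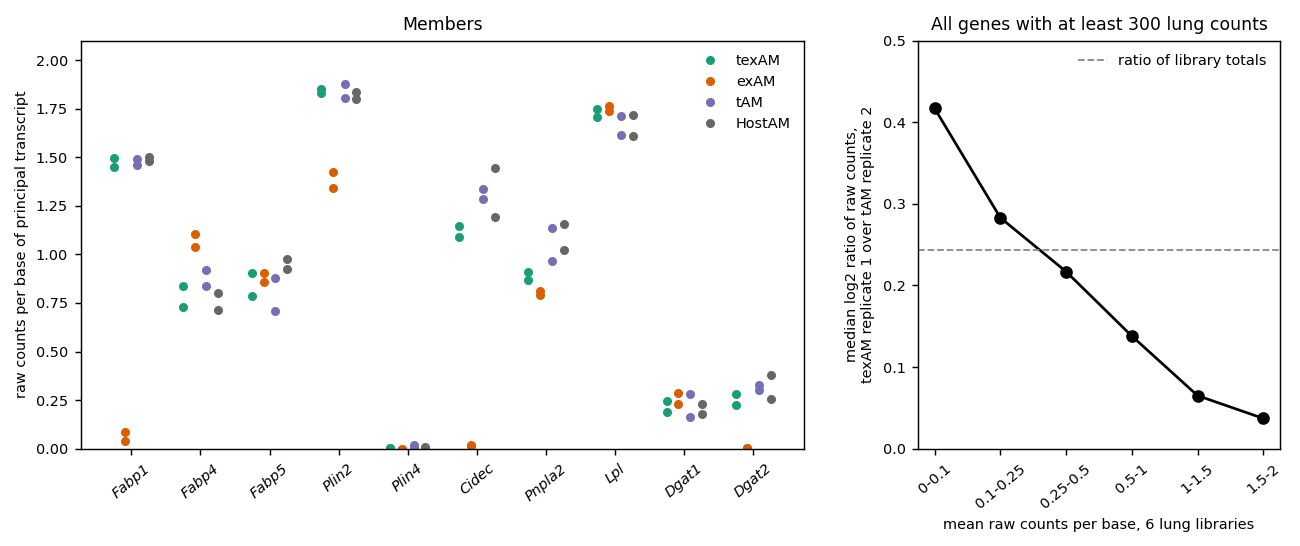
Left, raw counts per base of the principal transcript for each gene and library; right, median log2 ratio of raw counts in texAM replicate 1 over tAM replicate 2 for genes grouped by mean counts per base over the lung libraries, with the ratio of library totals as a dashed line. Plin2, Lpl and the lung values of Fabp1 and Cidec lie in the range where the ratio falls to 0.065 and below. Pnpla2 in some lung libraries and Fabp4 in exAM reach the lower end of that range.

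Levels in exAM also depend on how libraries were scaled, because the exAM libraries were the smallest and their TMM factors were 0.892 and 0.912, against 1.02 to 1.05 in the lung libraries. The median log2 fold change of all tested genes in texAM over exAM was 0.11 with TMM, 0.33 by library totals alone and 0.69 in unscaled counts, with 53.1%, 68.1% and 86.7% of the calls higher. For exAM over tAM the medians were -0.09, -0.29 and -0.52, with 48%, 34.5% and 20.6% of the calls higher, and for exAM over HostAM -0.08, -0.26 and -0.61, with 47.3%, 35.2% and 16%. Scaling moves all genes together, so a difference from the median tested gene hardly changes with it. By that measure texAM over exAM was 0.71 lower for Lpl, 1.14 lower for Fabp4 and 5.41 higher for Cidec. Lpl had 1.747 and 1.709 counts per base in texAM and 1.737 and 1.765 in exAM, where lung counts hardly followed library size. The part of that in its value was not tested. Fabp1, Plin4, Cidec and Dgat2 kept their direction and call in the 3 comparisons with exAM under each of the 168 values of the alternatives run.

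Between the lung groups none of the 10 genes was called. In texAM over tAM, which sets transplanted cells with culture against those without, 0 of 10 were called by edgeR and 0 by DESeq2, and 4 (Fabp4, Plin4, Cidec and Pnpla2) had an unadjusted p under 0.05, as had 7.84% of all tested genes; 0.00688% of all tested genes were called, 0.00688% higher and 0% lower. All 10 log2 fold changes were below 0 with TMM, but Fabp5 (0.09) and Lpl (0.05) were above 0 in unscaled counts, and leaving out 1 library took Dgat1 to 0.21 and Fabp5 to 0.04. For Cidec the value was -0.37 (95% interval -0.64 to -0.11, adjusted p = 0.481), for Dgat2 -0.46 (-0.92 to 0.00, adjusted p = 0.638), for Fabp1 -0.15 (-0.63 to 0.33, adjusted p = 0.905) and for Plin4 -1.97 (-3.27 to -0.67, adjusted p = 0.463). These intervals leave room for a difference in each gene, and for Plin4 for a large one. For Fabp1 the levelled-off counts also limit what any comparison between lung groups can show. Plin4 read 2.09 and 2.74 CPM in texAM against 11.7 and 7.27 CPM in tAM, without overlap.

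In texAM over HostAM, 0 of 10 were called by edgeR and by DESeq2, 2 (Cidec and Pnpla2) had an unadjusted p under 0.05 (13.2% of all tested genes), and 0.33% of all tested genes were called (0.248% higher and 0.0825% lower). Cidec differed by -0.28 (95% interval -0.54 to -0.01, adjusted p = 0.36), Pnpla2 by -0.34 (-0.62 to -0.06, adjusted p = 0.293), Dgat2 by -0.36 (-0.83 to 0.10, adjusted p = 0.505) and Fabp1 by -0.06 (-0.54 to 0.42). In tAM over HostAM, 0 of 10 were called by either tool, 2 (Fabp4 and Plin4) had an unadjusted p under 0.05 (10% of all tested genes), and 0.0413% of all tested genes were called (0.0206% higher and 0.0206% lower). There Fabp4 was at 0.31 (95% interval 0.04 to 0.58, adjusted p = 0.43) and Plin4 at 1.38 (0.11 to 2.64, adjusted p = 0.451). These 3 comparisons share their groups in pairs, so the values are given side by side only.

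The wider pathway was described with 73 further genes in 8 lists, of which 52 had enough counts to be tested. In texAM over exAM 9 of the 52 were higher and 20 lower, where 23.2% of all tested genes were higher and 20.5% lower. The median log2 fold change was -0.18 beside 0.11 over all tested genes. Without scaling the counts were 19 higher and 7 lower, beside 6255 and 956 of all tested genes. By library totals alone they were 12 and 16, beside 4363 and 2042, so the balance of directions follows the scaling. The counts in exAM over tAM were 20 higher and 11 lower, beside 21.5% and 23.2% of all tested genes. They were 9 and 18 unscaled, beside 1371 and 5272 of all tested genes, and 14 and 14 by library totals, beside 2250 and 4274. In exAM over HostAM 19 were higher and 13 lower, beside 20.9% and 23.3%. There the counts were 8 and 25 unscaled, beside 1110 and 5830, and 13 and 16 by library totals, beside 2275 and 4189. The percentages of all tested genes also stand beside the counts of each list and marker set below. Among the changes of exAM over tAM given below, those of Cideb, Mgll, Lipa, Agpat3, Agpat5, Bscl2, Aup1 and Lmf1 kept their sign in unscaled counts but did not pass there. Between the lung groups none of the 52 was called by edgeR in texAM over tAM, texAM over HostAM or tAM over HostAM, with 7, 11 and 7 at an unadjusted p under 0.05 (13.5%, 21.2% and 13.5% of the 52, beside 7.84%, 13.2% and 10% of all tested genes) and 1, 5 and 1 called by DESeq2.

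Among fatty acid binding proteins, 4 of 10 were tested, 3 of them members described above. The fourth, Fabp7, the brain-type binding protein, was counted 0 and 5 times in texAM, 413 and 291 times in exAM, 1 and 0 times in tAM, and 0 and 6 times in HostAM. It ran opposite to Fabp1, with 0.285 ± 0.403 CPM in texAM and 57.9 ± 18.3 CPM in exAM (SD, n = 2 libraries each), a log2 fold change of -7.64 (adjusted p = 7.91e-05). With tAM raised to 3 counts over the group, which understates the difference, its ratio of exAM to tAM was 316. The 95% counting interval, from the counts themselves, was 170 to 37540 (adjusted p = 5.65e-05). Cultured cells thus had Fabp4, Fabp5 and Fabp7 as their counted binding proteins with little Fabp1, and lung cells had Fabp1, Fabp4 and Fabp5.

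Among droplet coat genes, 7 of 8 were tested, and in texAM over exAM 3 were higher (Plin4, Cidec and Plin5) and 1 lower (Cideb), with a median of 0.95. Plin5, which ties droplets to mitochondria, was counted 13 and 7 times in texAM, 0 and 0 times in exAM and 14 and 13 times in tAM. It was at least 4.47-fold higher in texAM than in exAM (adjusted p = 0.0176) and at least 6.68-fold lower in exAM than in tAM (adjusted p = 0.0101). Cideb, a relative of Cidec known from liver, was at 28.5 ± 0.225 CPM in texAM and 57.4 ± 10.1 CPM in exAM (SD, n = 2 libraries each), a log2 fold change of -1.01 (adjusted p = 0.00392), and at 0.97 in exAM over tAM (adjusted p = 0.00483). In unscaled counts those were -0.45 (adjusted p = 0.176) and 0.55 (adjusted p = 0.112). Plin1 (0.95, adjusted p = 0.207) and Plin3 (0.27, adjusted p = 0.193) did not pass in texAM over exAM. Unscaled, Plin3 passed at 0.84 (adjusted p = 0.00211), and Plin1 at 1.53 did not (adjusted p = 0.0598).

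Lipolysis held 9 genes, all tested, with 2 higher (G0s2 and Pnpla3) and 5 lower (Hilpda, Mgll, Abhd5, Lipa and Pnpla2) in texAM over exAM, and a median of -0.43. The inhibitors of the Pnpla2 lipase moved in opposite directions. G0s2, a small inhibitor known from adipocytes, was counted 109 and 79 times in texAM, 0 and 2 times in exAM, 64 and 53 times in tAM, and 61 and 42 times in HostAM. With exAM raised to 3 counts over the group, which understates the difference, its ratio of texAM to exAM was 42.0 and of exAM to tAM 0.0346. The 95% counting intervals, from the counts themselves, were 17.2 to 525 (adjusted p = 0.000223) and 0.00276 to 0.0851 (adjusted p = 0.000417). Hilpda, an inhibitor induced by hypoxia and fatty acids, was counted 44 and 68 times in texAM, 181 and 298 times in exAM, 68 and 39 times in tAM, and 35 and 47 times in HostAM, with log2 fold changes of -2.64 in texAM over exAM (adjusted p = 0.000548) and 2.59 in exAM over tAM (adjusted p = 0.000605). Both kept their direction and call in unscaled counts.

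Abhd5, the activator of the Pnpla2 lipase, was at 279 ± 3.07 CPM in texAM and 444 ± 29.6 CPM in exAM (SD, n = 2 libraries each), a log2 fold change of -0.67 (adjusted p = 0.000178), but at -0.09 unscaled (adjusted p = 0.42). Pnpla3, a droplet-bound relative of Pnpla2, was counted 72 and 71 times in texAM, 7 and 6 times in exAM and 75 and 65 times in tAM, a log2 fold change of 2.86 (adjusted p = 0.000873) in texAM over exAM and -2.97 (adjusted p = 0.000667) in exAM over tAM. Mgll, the lipase of the last step, and Lipa, the lysosomal lipase, were at -0.70 (adjusted p = 0.000873) and -0.65 (adjusted p = 0.000147) in texAM over exAM; unscaled they were at -0.13 (adjusted p = 0.329) and -0.07 (adjusted p = 0.427). Against tAM, 4 genes of the list were higher in exAM, led by Hilpda, Abhd5 at 0.76 (adjusted p = 7.81e-05) and Lipa at 0.53 (adjusted p = 0.000502), and 3 were lower, G0s2, Pnpla3 and the lipase Abhd6 at -1.05 (adjusted p = 0.0397).

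Triglyceride synthesis had 13 of 16 genes tested, with 3 higher and 3 lower in texAM over exAM and a median of -0.03. Higher were Dgat2, Lpin1 (0.79, adjusted p = 0.000144), a phosphatidate phosphatase, and Agpat4 (0.67, adjusted p = 0.00464). Lower were Dgat1 and the acyltransferases Agpat3 (-0.97, adjusted p = 0.000844) and Agpat5 (-0.97, adjusted p = 0.0035), which did not pass unscaled, at -0.40 each (adjusted p = 0.0805 and 0.196). The exAM over tAM calls were 3 higher and 3 lower: with Dgat2 at the low end, Lpin1 was at -1.20 (adjusted p = 8.25e-06) and Agpat4 at -0.76 (adjusted p = 0.00215), while Dgat1 was at the level given above, Agpat5 at 0.91 (adjusted p = 0.00472) and Agpat3 at 0.76 (adjusted p = 0.00333).

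Of the droplet assembly genes, 7 of 9 were tested, and in texAM over exAM none was higher and 3 were lower: Soat1, which makes cholesteryl ester (-1.09, adjusted p = 2.29e-05), Bscl2, or seipin (-0.94, adjusted p = 0.00121), and Aup1 (-0.50, adjusted p = 0.0302). Unscaled, Soat1 was at -0.51 (adjusted p = 0.00264), Bscl2 at -0.37 (adjusted p = 0.148) and Aup1 turned to 0.07 (adjusted p = 0.733). The calls in exAM over tAM were these 3, higher, at 1.04 for Soat1 (adjusted p = 2.94e-05), 0.62 for Bscl2 (adjusted p = 0.0116) and 0.50 for Aup1 (adjusted p = 0.0294).

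Around Lpl, 8 of 12 genes were tested. Angptl4, an inhibitor of lipoprotein lipase, was at 130 ± 6.14 CPM in texAM, 97.7 ± 24.4 CPM in exAM and 172 ± 28.7 CPM in tAM (SD, n = 2 libraries each). It was not called in texAM over exAM (0.41, adjusted p = 0.111) and was lower in exAM than in tAM (log2 fold change -0.82, adjusted p = 0.00698). Unscaled, Angptl4 passed in both, at 1.003 (adjusted p = 0.00258) and -1.251 (adjusted p = 0.00086). Lmf1, needed for lipase folding, was at -1.003 (adjusted p = 0.00433) and its partner Sel1l at -0.89 (adjusted p = 1.39e-05) in texAM over exAM, against -0.44 (adjusted p = 0.155) and -0.32 (adjusted p = 0.0177) unscaled. Set against tAM, exAM had Lmf1 at 0.76 (adjusted p = 0.0168), Sel1l at 0.71 (adjusted p = 6.14e-05) and Lmf2, a relative of Lmf1, at -0.81 (adjusted p = 0.00552), and hepatic lipase, Lipc, at least 13.5-fold higher at 2.40 ± 0.971 CPM in exAM and 0 counts in tAM (adjusted p = 0.0123). The activator Apoc2 had 0 to 24 counts a library and was not called, and Gpihbp1, the endothelial anchor of the enzyme, had 0 counts in all 8 libraries.

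Fatty acid uptake and activation had 9 of 12 genes tested, 2 higher and 6 lower in texAM over exAM, with a median of -0.88. The transport protein gene Slc27a6 was counted 45 and 5 times in texAM, 386 and 393 times in exAM, 5 and 8 times in tAM, and 1 and 0 times in HostAM, a log2 fold change of -4.56 (adjusted p = 0.000321), with texAM replicate 1 above the other lung libraries. Acsl4, a ligase that favours long polyunsaturated acids, was at 132 ± 35.4 CPM in texAM and 570 ± 44.9 CPM in exAM (SD, n = 2 libraries each), a log2 fold change of -2.12 (adjusted p = 4.05e-05). Cd36, the scavenger receptor that takes up fatty acids, was at 253 ± 1.37 CPM in texAM and 749 ± 112 CPM in exAM (SD, n = 2 libraries each), a log2 fold change of -1.57 (adjusted p = 4.65e-06). All 3 kept that direction and call unscaled, Cd36 at -0.98 (adjusted p = 9.02e-05). The 2 higher genes were Slc27a3, with a ratio of 12.8 (95% counting interval 4.15 to 63.6, adjusted p = 0.0106), and Acsl3 (2.00, adjusted p = 0.00594). In exAM over tAM 6 were higher, led by Slc27a6 (6.31, adjusted p = 9.75e-05), Acsl4 (2.67, adjusted p = 9.22e-06) and Cd36 (1.63, adjusted p = 3.39e-06), and only Slc27a3 was lower.

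Of 7 PPAR genes 5 were tested. Pparg was at 181 ± 26.4 CPM in texAM and 238 ± 5.15 CPM in exAM (SD, n = 2 libraries each), a log2 fold change of -0.40 (adjusted p = 0.0235), which turned to 0.18 without scaling (adjusted p = 0.285). Its value in exAM over tAM was 0.25 (adjusted p = 0.122). Rxrb, which encodes a partner receptor, was higher in texAM than in exAM (1.08, adjusted p = 0.0166) and lower in exAM than in tAM (-1.67, adjusted p = 0.00158).

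**Figure D4:**
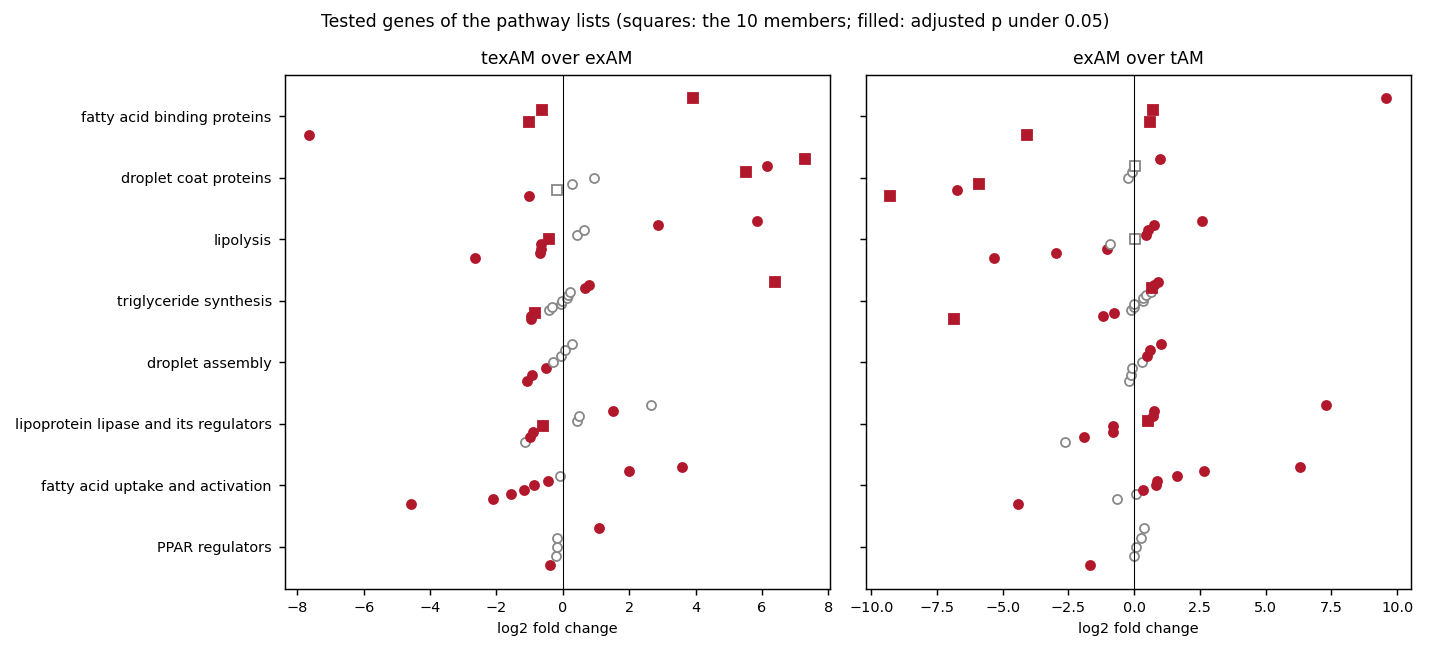
Log2 fold change of every tested gene of the 8 pathway lists in texAM over exAM and in exAM over tAM; squares are the 10 genes described here, filled symbols passed an adjusted p of 0.05, and height within a list only separates the points. The lists differ in spread: droplet assembly genes stay between -1.09 and 0.27 in texAM over exAM, while the binding proteins reach from Fabp7 at -7.64 to Fabp1 at 3.93; values of genes at 0 counts in one group, such as Plin4 and Plin5, are fitted and mark no size.

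By distance between centred log2(CPM + 1) levels over the 8 libraries, the genes most like Cidec were Apoe (distance 0.341), Dgat2 (0.376) and Gal (0.444), and those most like Dgat2 were Cidec (0.376), Gal (0.532) and Apoe (0.556). Those most like Fabp1 were Scgb1a1 (0.278), Slpi (0.408) and Ly86 (0.460). Pearson's r was 0.996 to 0.999 for these pairs, over 8 libraries that fall into 2 clusters, so it describes the step between culture and lung. Plin4 had no close neighbour, the nearest being Frat2 (1.06), Il18bp (1.18) and Leng9 (1.21). Among the genes with smaller changes, Lpl was nearest to Atp6v0d2 (0.055), ND1 (0.059) and Itm2b (0.063). Fabp4 was nearest to S100a1 (0.258), Minpp1 (0.266) and Serpinb6a (0.270), and Fabp5 to Lin54 (0.154), Arel1 (0.175) and Pdpk1 (0.175). Pnpla2 was nearest to Cited2 (0.224), Selenon (0.257) and Ndufa2 (0.257), and Dgat1 to Klhl42 (0.340), Ubr7 (0.357) and Nbr1 (0.369).

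Markers of other cells were summed in each library, since in bulk samples fewer cells of a type and less RNA per cell cannot be told apart. The 12 alveolar macrophage markers summed to 3638 to 4335 CPM in exAM and 3444 to 3988 CPM in the 6 lung libraries, and none of them was at 0. In texAM over exAM 4 of the 12 were called higher (Krt79, Siglecf, Ptprc and Fcgr1) and 6 lower (Marco, Adgre1, Chil3, Car4, Ear2 and Pparg). Krt79 had the largest difference, with 150 and 188 CPM in texAM and 2.23 and 1.24 CPM in exAM (log2 fold change 6.62, adjusted p = 7.66e-08), and Siglecf had 279 and 321 CPM in texAM and 228 and 144 CPM in exAM (0.69, adjusted p = 0.00858). Marco went the other way, with 196 and 211 CPM in texAM and 520 and 471 CPM in exAM (-1.28, adjusted p = 1.12e-05; -0.71 unscaled, adjusted p = 0.000744), while Chil3, Car4 and Ear2 turned sign in unscaled counts and did not pass there. Of the cells best known for these genes, hepatocytes and enterocytes had marker sums of 0.309 to 1.20 CPM in exAM and 0.684 to 2.76 CPM in the lung libraries over 6 genes, with Alb, Apoa1, Ttr and Fabp2 at 0 throughout. The 7 adipocyte markers, which include Plin1 and Lipe of the lists above, summed to 11.5 to 12.7 CPM in exAM and 15.6 to 30.2 CPM in lung, with Adipoq, Lep and Adrb3 at 0 in all 8 libraries.

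Airway epithelial markers shared with Fabp1 the step between culture and lung: the 5 genes summed to 2.78 to 7.03 CPM in exAM and 229 to 514 CPM in lung. Within the lung libraries Fabp1 held 801 to 831 counts, at 1.448 to 1.503 counts per base, where counts had levelled off. Its narrow range can therefore not be weighed against the wider ones of airway genes. In the lung libraries Cyp2f2 ran from 317 to 1411, Scgb3a2 from 61 to 547, Bpifa1 from 738 to 1654 and Foxj1 from 27 to 143 counts. Scgb1a1 of that list, the gene nearest to Fabp1 in pattern, had 771 and 747 counts in texAM, 40 and 18 in exAM, 695 and 680 in tAM, and 782 and 826 in HostAM, at 1.58 counts per base in lung. The 6 lymphocyte markers summed to 0 to 0.172 CPM in exAM and 14.1 to 99.2 CPM in lung. The 8 markers of alveolar type 2 epithelium summed to 253 to 256 CPM in exAM and 205 to 265 CPM in lung. That sum was carried by Abca3, at 167 and 179 CPM in exAM, and Napsa, at 88.8 and 74.0 CPM. The surfactant genes Sftpc, Sftpa1 and Sftpd and the transporter gene Slc34a2 were at 0 in both exAM libraries and Sftpb had 1 count there, and all 5 were called higher in texAM over exAM, of 7 tested. The 9 markers of monocytes and other macrophages summed to 846 to 1149 CPM in exAM and 96.9 to 208 CPM in lung, mostly Itgam. Of these 9, Itgam and Lyve1 were called lower in texAM over exAM, and Ccr2, Cx3cr1, C1qa, C1qb and C1qc higher; Ccr2 had 68.3 and 50.5 CPM in texAM and 4.80 and 3.09 CPM in exAM. The 7 endothelial markers summed to 20.7 to 31.7 CPM in exAM and 0.576 to 7.99 CPM in lung, with Cldn5, Tek, Emcn and Gpihbp1 at 0 throughout. That exAM sum was mostly Cdh5, at 28.6 and 17.8 CPM in exAM and 0 counts in every lung library. Pecam1 went the other way, at 1.20 and 0.309 CPM in exAM and 5.85 and 7.53 CPM in texAM. Of 3 endothelial markers tested in texAM over exAM, 1 was called higher and 1 lower. The part of these markers' cells in the differences of Fabp1, Plin4, Cidec and Dgat2 was not tested.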

How the data were processed

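The deposited table held counts of reads per gene, whole numbers for 37310 Ensembl IDs. Per the labels' protocols, cDNA was amplified from total RNA with the Ovation RNA-seq V2 kit. The submitters' processing notes name Bowtie, HTSeq 0.6.1, R 3.3 and mm10 (GRCm38); how duplicate reads and strand were treated is not given in the sources used here. Positions and lengths came from GENCODE M21, in which 87.4% of IDs were found.

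Counts were fitted with edgeR 4.0.16 in R 4.3.3: filterByExpr with a minimum of 10 counts (14537 genes left), TMM, a robust quasi-likelihood fit of all 8 libraries with 1 coefficient per group and 4 residual degrees of freedom, F tests of 6 pairs of groups, and Benjamini-Hochberg adjustment over all tested genes. SE is the log2 fold change over the root of F, and 95% intervals use that SE. A fold or ratio against a group with fewer than 3 counts uses 3 counts over the group. Groups with 1 to 3 counts get a counting interval from the counts themselves. Both cover counting error only. The fit was tested on simulated counts. The replicate numbers did not pair the libraries.

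The 10 genes, the lists and the tests were chosen with earlier results of these data known. Named were all 10 genes, up to 3 called genes a direction from each list by size of change (for the pairs described gene by gene), direct regulators of Pnpla2 and Lpl, the 3 nearest genes in pattern, and near-identical or overlapping genes. A gene that this rule names is not reported here. The alternatives varied the filter (none, or 50 counts), the scaling (DESeq2 1.42.0 size factors, library totals without TMM, TMM on genes under 0.5 counts per base), the test (DESeq2's Wald test, the 4 libraries compared, a replicate block, a minimum of 2-fold) and the libraries (each left out); unscaled counts were added after seeing the data. Near-identical copies were sought with blastn 2.17.0.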

Additional observations from a re-analysis of the deposited data

How the results depend on the processing

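Calls among the 10 genes were 9, 8 and 8 in texAM over exAM, exAM over tAM and exAM over HostAM. By library totals without TMM they numbered 7 in each, beside 6405, 6524 and 6464 of all genes. Unscaled they numbered 6, 6 and 7, beside 7211, 6643 and 6940 of all genes. At a minimum of 2-fold they were 5, 4 and 5, with 3651, 3807 and 3740 of all genes. Leaving out 1 library gave 7 to 9, 7 to 8 and 7 of the 10 genes, and 4471 to 4720, 4698 to 5012 and 4591 to 5833 of all genes; the lone library left in a group is assumed to vary like the others. Between lung groups 0 of the 10 were called each time. All genes called ranged from 0 to 2 in texAM over tAM, 1 (without texAM replicate 1) to 90 (without HostAM replicate 2) in texAM over HostAM, and 0 to 9 in tAM over HostAM. In texAM over tAM they were 238 without a filter, 73 by DESeq2's Wald test, 2 from the 4 libraries, 0 unscaled and 0 with the replicate block; in texAM over HostAM 694 without a filter, 106 at a minimum of 50, 385 by DESeq2, 23 unscaled and 29 with the replicate block; in tAM over HostAM 425, 44 and 190 without a filter, at a minimum of 50 and by DESeq2. The block changed no call of the 10 genes, and the numbers carried no shared deviation (correlations -0.079 to 0.011). Unscaled counts turned the sign of Plin2 (0.41 in texAM over exAM, -0.41 in exAM over tAM, -0.39 in exAM over HostAM), Pnpla2 (0.15, -0.39 and -0.44) and Fabp5 (-0.11 in exAM over HostAM). By library totals without TMM, 4 calls were lost: Pnpla2 (-0.21, adjusted p = 0.182) and Dgat1 (-0.61, adjusted p = 0.0552) in texAM over exAM, Dgat1 in exAM over tAM (0.46, adjusted p = 0.13) and Fabp5 in exAM over HostAM (0.24, adjusted p = 0.152); the last was also lost from the 4 libraries alone (adjusted p = 0.0566). The cause was not tested.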
